A study of Homo sapiens with 8 samples.

Results

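Chemokines are small secreted proteins that steer white blood cells, and 10 of their genes are described here in mesothelioma cells: CXCL1, CXCL2, CXCL3, CXCL5, CXCL6 and CXCL8 of the CXC family, CCL2, CCL5 and CCL20 of the CC family, and CX3CL1. They were taken by symbol, whatever their values, from a table of 20323 genes, and each symbol matched 1 gene. The cells were H2452, an established human line labelled as pleural mesothelioma of the biphasic type, with the genotype given as wt. In one group they were exposed to 20 nM DPT (deoxypodophyllotoxin, a plant lignan that blocks microtubule assembly), and in the other to the solvent DMSO. Both groups were held for 48 h and had 4 libraries each, described by the submitters as biological replicates. The labels tie no DPT library to a DMSO library and give no culture day, so the p-values here measure the spread between these libraries.

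The CXC chemokines listed here share an ELR motif near the start of the protein and attract neutrophils, mainly through the receptor CXCR2, and for CXCL6 and CXCL8 also through CXCR1. CCL2 draws monocytes through CCR2, CCL5 draws T cells and monocytes, and CCL20 acts on CCR6. CX3CL1 differs from the others in being made as a membrane-bound protein that proteases can shed. In many cell types, inflammatory signals such as interleukin-1 induce these genes through the transcription factor NF-kB, and many of their messages are short-lived.

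The CXC genes of this set lie in one cluster on chromosome 4 and carry an NF-kB type site shortly before their starts, so these sites are shown first. In the RefSeq promoter table (build GRCh38.p14), 7 of the 10 genes had an entry. The 250 bases before each start were searched on both strands for GGAANTTCC, a palindromic NF-kB type motif that overlaps none of the other motifs searched at these sites. It was found in 6 of the 7, all 6 CXC genes, against 0.826% of the 35116 promoters in the table. The sequences below give the match, in capitals, with 10 bases on either side, 5′ to 3′ on the strand of the gene.
CXCL1, chr4:73869305-73869333, plus strand: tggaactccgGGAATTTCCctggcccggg
CXCL2, chr4:74099254-74099282, minus strand: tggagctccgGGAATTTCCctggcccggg
CXCL3, chr4:74038749-74038777, minus strand: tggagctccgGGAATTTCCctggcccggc
CXCL5, chr4:73998749-73998777, minus strand: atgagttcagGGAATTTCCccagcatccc
CXCL6, chr4:73836579-73836607, plus strand: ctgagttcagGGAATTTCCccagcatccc
CXCL8, chr4:73740468-73740496, plus strand: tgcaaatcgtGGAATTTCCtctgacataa

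The 6 matches read the same 9 bases and began 77 to 91 bases before the RefSeq starts. The bases around them fell into 3 kinds. CXCL1 and CXCL2 shared 28 of 29 bases, as did CXCL2 and CXCL3, and CXCL5 and CXCL6. CXCL8 shared 14 to 17 of 29 with the others. In GENCODE 29, the windows of CXCL1 and CXCL8 lie outside the gene model, while those of CXCL2, CXCL3, CXCL5 and CXCL6 lie inside gene models that begin further upstream. An AP-1 type motif (TGANTCA, in 6.57% of promoters) was found only in CXCL8 among the 7, 137 bases before the start. The letters TATAAA, in 10.7% of promoters, were found in CXCL8 and CCL20, and the interferon-response type motif, in 3.02%, in none of the 7. A match is a run of letters and not evidence of binding in these cells.

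On GRCh38 (GENCODE 29), the 6 CXC genes lie within 358.8 kb of chromosome 4, from CXCL8 (73740506 to 73743716) through CXCL6, CXCL1, CXCL5 and CXCL3 to CXCL2 (74097035 to 74099293). The 3 other genes of the table between them, PF4V1, PF4 and PPBP, had 0 counts in all 8 libraries. CCL2 lies on chromosome 17 (34255218 to 34257203) at one end of a 108.0 kb run of CC chemokine genes, in which none of the 5 others passed 11 counts in any library. CCL5 lies elsewhere on chromosome 17, CCL20 on chromosome 2 and CX3CL1 on chromosome 16. Transcripts of CXCL1, CXCL2 and CXCL3 share part of their sequence with each other. Of all stretches of 50 bases, 4.81%, 12.5% and 6.01% respectively also occur in another of these 3 genes, and their deposited estimates were whole numbers in all 8 libraries. CXCL8 and CCL2 share no such stretch with any other gene. For CCL5 15.2% of the stretches occur in 554 other genes, and its deposited estimates were not whole numbers in 5 of the 8 libraries.

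Library totals lay between 14964422 and 17205395 counts, so 1 CPM (a count scaled to library size) stood for about 15 to 17 counts. The libraries DPT replicate 2 and DMSO replicate 3 differed from the remaining 6 in many genes, a split no label explains. The summed level of 19 interferon response genes was 2576 CPM in DMSO replicate 3 and 1751 CPM in DPT replicate 2, against 9296 to 10236 CPM in the other 6. The chemokines were therefore compared in all 8 libraries, with a term for this pair, and without the pair. The pair was picked from these data, and results that use it rest on that choice. Of the 12648 genes tested, 5.68% were higher and 5.29% lower in DPT with all 8 libraries (edgeR's quasi-likelihood test, adjusted p under 0.05). With the pair term the shares were 16.9% and 17%, and in the 6 libraries 17% and 17.1%.

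Among the chemokines, CXCL3 rose and CCL2 fell in the test on all 8 libraries. Of the 10, 6 passed the filter on low counts, and 1 was called in each direction. With the term for the pair, CXCL1, CXCL2 and CXCL8 rose as well, giving 4 higher and 1 lower of the 6 tested. In that fit CCL5 had a log2 fold change of -0.08 (95% confidence interval -0.40 to 0.24). Bulk RNA cannot tell fewer expressing cells from less RNA per cell. The same holds for increases.

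**Figure D1:**
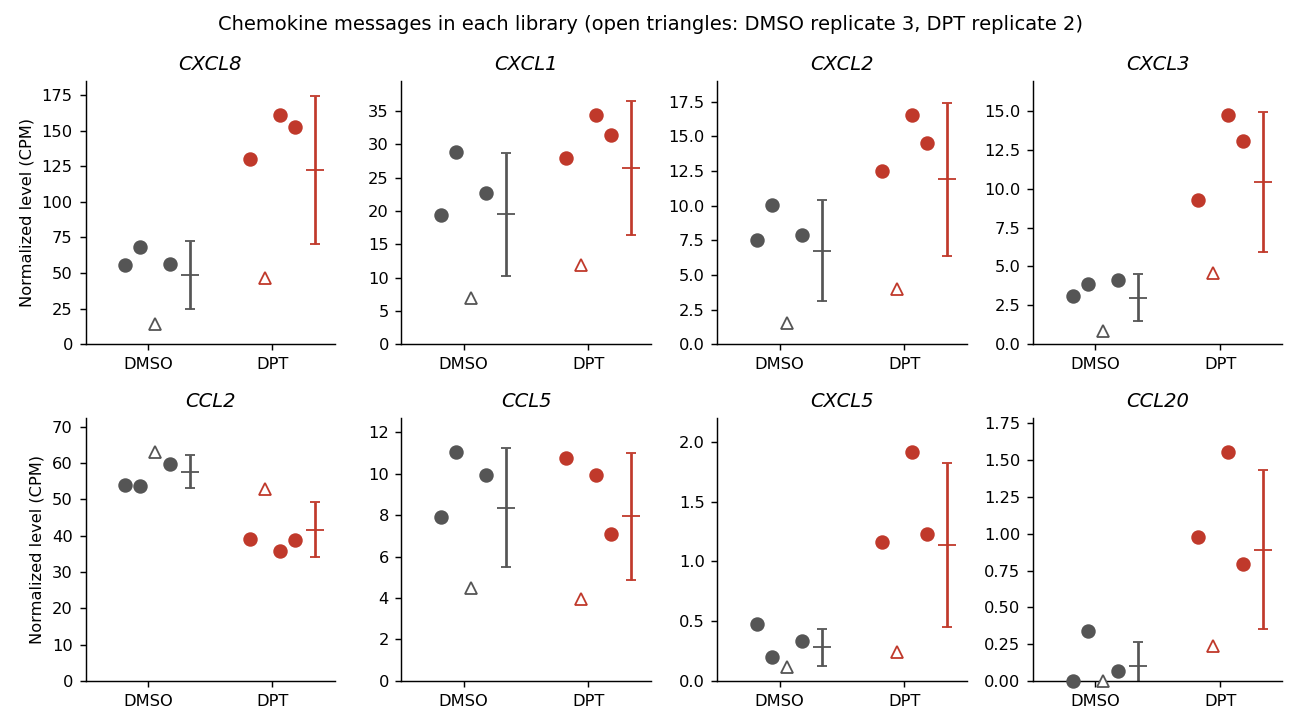
Normalized level in CPM on the vertical axis of each panel, for 8 chemokines in DMSO and DPT. Each point is a library, bars give the mean and SD of 4 libraries, and open triangles are DMSO replicate 3 and DPT replicate 2. The open triangles lie low within their groups for CXCL8, CXCL1, CXCL2, CXCL3 and CCL5 and high for CCL2.

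CXCL8, also called interleukin-8, is the best known neutrophil attractant of the set. Its levels in DMSO replicates 1 to 4 were 55.9, 68.5, 14.3 and 56.0 CPM, and in DPT replicates 1 to 4 they were 130.1, 46.3, 160.7 and 152.2 CPM. In each group 1 library, a member of the pair, was far below the other 3, and for that reason the groups overlapped. The means were 48.7 ± 23.7 (SD, n = 4) and 122.3 ± 52.3 CPM (SD, n = 4), a ratio of 2.51. With 8 libraries the log2 fold change was 1.33 (SE 0.47), which did not pass edgeR's test (adjusted p = 0.105). With the pair term it was 1.37 (SE 0.08) and passed (edgeR, adjusted p = 7.66e-09). Without the pair it was 1.30 (edgeR, adjusted p = 1.79e-09), and DPT replicate 2 alone was 3.24 times DMSO replicate 3.

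CXCL3, a close relative of CXCL1 and CXCL2 that also acts on CXCR2, had the largest log2 fold change of the 6 tested chemokines. The DMSO levels were 3.12, 3.86, 0.817 and 4.15 CPM, and the DPT levels were 9.30, 4.55, 14.7 and 13.05 CPM. Every DPT library was above every DMSO library, although the lowest DPT library, replicate 2, was only slightly above the highest DMSO library. Means were 2.99 ± 1.51 and 10.4 ± 4.51 CPM (SD, n = 4 each). The log2 fold change was 1.81 (SE 0.47, 95% confidence interval 0.77 to 2.85) with an edgeR adjusted p of 0.0359, 1.84 (SE 0.19) with the pair term, and 1.73 in the 6 libraries. The call was lost on leaving out DMSO replicate 1, 2 or 4 or DPT replicate 1, 3 or 4, with edgeR adjusted p of 0.0684 to 0.107, while the log2 fold change stayed between 1.48 and 2.06 over all 8 omissions.

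CXCL2 and CXCL1, which also act on CXCR2, showed smaller differences. CXCL2 was at 7.52, 10.03, 1.52 and 7.91 CPM in DMSO and at 12.5, 4.02, 16.5 and 14.5 CPM in DPT. CXCL1 was at 19.4, 28.8, 6.95 and 22.7 CPM in DMSO and at 27.9, 11.8, 34.3 and 31.4 CPM in DPT. In both genes the pair held the lowest library of each group. Outside the pair, the CXCL2 groups did not overlap, whereas DPT replicate 1 was below DMSO replicate 2 for CXCL1. With 8 libraries the log2 fold changes of 0.82 (SE 0.52) for CXCL2 and 0.44 (SE 0.41) for CXCL1 did not pass edgeR's test (adjusted p = 0.356 and 0.548). With the pair term they were 0.86 (SE 0.15) and 0.47 (SE 0.11), and both passed (edgeR, adjusted p = 2.6e-04 and 0.00487). In the 6 libraries they were 0.77 and 0.40, and both passed (edgeR, adjusted p = 3.4e-04 and 0.0131).

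CCL2, the monocyte attractant, went the other way. It was at 54.1, 53.7, 63.1 and 59.8 CPM in DMSO replicates 1 to 4, and at 39.1, 52.8, 35.9 and 38.9 CPM in DPT. Every DPT library was below every DMSO library, with DPT replicate 2 just under the lowest of them. The mean fell from 57.6 ± 4.57 to 41.7 ± 7.57 CPM (SD, n = 4 each), so that DMSO was 1.38 times DPT. The log2 fold change was -0.47 (SE 0.12, 95% confidence interval -0.74 to -0.20; edgeR, adjusted p = 0.0361), -0.48 with the pair term (edgeR, adjusted p = 5.1e-05) and -0.56 in the 6 libraries (edgeR, adjusted p = 8.8e-06). The 8-library call held on leaving out DPT replicate 2 and was lost on leaving out any other library (edgeR, adjusted p = 0.0586 to 0.110). It was also lost with limma on log2(FPKM + 0.1) and log2(FPKM + 1), with adjusted p of 0.0517 and 0.0519.

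CCL5, known for drawing T cells and often induced by interferon as well as by NF-kB, did not pass the test in any of these fits. Its levels were 7.92, 11.05, 4.50 and 9.95 CPM in DMSO and 10.8, 3.96, 9.93 and 7.11 CPM in DPT. The groups overlapped with and without the pair, which again held the lowest library of each group. With 8 libraries its log2 fold change was -0.07 (95% confidence interval -0.83 to 0.69; edgeR, adjusted p = 0.921), an interval that leaves room for a change in either direction.

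**Figure D2:**
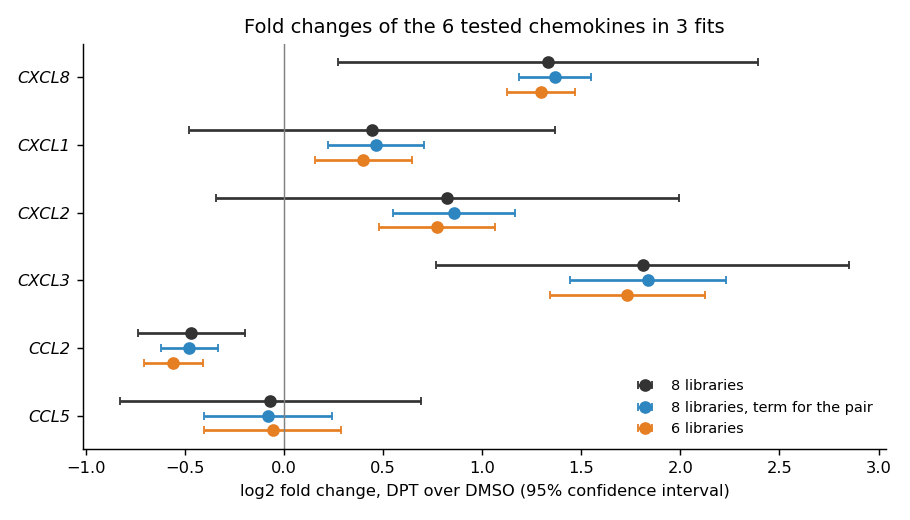
Log2 fold change of DPT over DMSO on the horizontal axis, with the 95% confidence interval, for the 6 tested chemokines in 3 edgeR fits. The point estimates of a gene differ little between fits, while the intervals are much wider with all 8 libraries and no term for the pair, as for CXCL8 at 1.33, 1.37 and 1.30.

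No overlap between the groups in all 8 libraries was seen for 1 tested chemokine in each direction, CXCL3 and CCL2. Across all tested genes this was so for 9.5% higher and 8.73% lower in DPT. A looser order, with no overlap in the 6 libraries and DPT replicate 2 on the same side of DMSO replicate 3, held for CXCL2, CXCL3 and CXCL8 upward and for CCL2 downward. Of all tested genes, 18.4% and 18.8% had that order. The biological coefficient of variation over all tested genes was 14.9% with treatment alone and 6.30% with the pair term.

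Set against the other 6 libraries, the pair was lower in every tested chemokine except CCL2. In the fit with the pair term its log2 difference, which is a description because the pair was picked from these data, was -2.08 for CXCL2, -1.83 for CXCL8, -1.64 for CXCL3, -1.56 for CXCL1 and -1.16 for CCL5, but 0.32 for CCL2. The mean of the 3 other DMSO libraries was 5.59 times DMSO replicate 3 for CXCL2 and 4.20 times for CXCL8. For CXCL1, CXCL2, CXCL8 and CCL5 the split between the pair and the rest was thus larger than the split between DPT and DMSO.

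Inside the pair, DPT replicate 2 against DMSO replicate 3 gave the same order of genes as the other 6 libraries. DPT replicate 2 was 5.57 times DMSO replicate 3 for CXCL3, 2.64 times for CXCL2, 1.70 times for CXCL1, 0.880 times for CCL5 and 0.837 times for CCL2. On the log2 scale the within-pair difference was 2.48 for CXCL3 against 1.74 outside the pair, and 1.70 against 1.30 for CXCL8. For CCL2 it was -0.26 against -0.56. Whether the DPT difference itself differed between the pair and the rest was tested as an interaction, and none of the 6 chemokines passed (edgeR, adjusted p = 0.383 for CCL2, 0.448 for CXCL8 and higher for the others; 1, CCL2, at an unadjusted p under 0.05), against 0.941% of all tested genes. The pair holds 1 library per group, so this test had wide intervals: for CXCL8 the interaction was 0.40 (95% confidence interval -0.02 to 0.82).

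**Figure D3:**
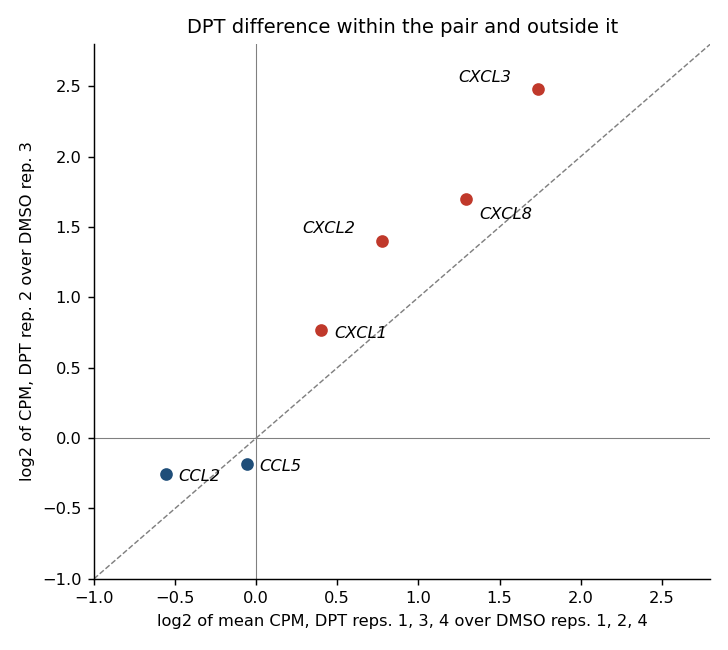
Log2 ratio of mean CPM, DPT over DMSO, in the 6 other libraries (horizontal axis) and log2 ratio of CPM within the pair (vertical axis) for the 6 tested chemokines, with CXC genes in red and CC genes in blue. The dashed line marks equal values, and all 4 CXC genes lie above it, with CXCL3 at 1.74 and 2.48.

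CXCL5, a neutrophil attractant of the same cluster, and CCL20, the ligand of CCR6, were measured at few counts. CXCL5 had 7, 3, 2 and 5 counts in DMSO replicates 1 to 4 and 19, 4, 32 and 20 in DPT. CCL20 had 0, 5, 0 and 1 counts in DMSO and 16, 4, 26 and 13 in DPT. DPT replicate 2, with 4 counts of each gene, lay within the range of the DMSO libraries, and the other 3 DPT libraries lay above it. Neither passed the filter with 8 libraries. Without the filter their log2 fold changes were 1.99 for CXCL5 and 3.08 for CCL20, and neither was called (edgeR, adjusted p = 0.0844 and 0.0668). A pair term with no filter, added after seeing the data, called both, at 1.92 and 3.08 (edgeR, adjusted p = 0.00524 and 0.00207). Both passed the filter in the 6 libraries only through the DPT libraries, and there edgeR gave 2.07 (SE 0.46, adjusted p = 0.00201) and 2.98 (SE 0.67, adjusted p = 0.00239). That fit had 8 tested chemokines, of which 6 were higher and 1 lower, and since the filter favoured these 2 genes the count of 6 is no support for a rise. The fitted values of CCL20 depend on how edgeR treats its zeros.

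CXCL6 and CX3CL1 were close to undetected. CXCL6 had 0 counts in all DMSO libraries and 3, 0, 0 and 2 in DPT. CX3CL1 had 1 count in DMSO replicate 2, none in the other DMSO libraries, and 3, 3, 1 and 1 in DPT. A library with 0 counts allows up to 3 counts, about 0.2 CPM, so no fold change is given for either gene.

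Levels of different chemokines can be set side by side only per length, and here the deposited FPKM (fragments scaled to gene length and library size) serve. In DMSO the order of mean FPKM was CCL2 (75.3 ± 6.45), CXCL8 (29.3 ± 14.4), CXCL1 (16.3 ± 7.69), CCL5 (7.004 ± 2.62), CXCL2 (5.95 ± 3.22) and CXCL3 (2.73 ± 1.37, SD, n = 4 each), with the other 4 under 0.2. In DPT it was CXCL8 (76.2 ± 32.7), CCL2 (56.0 ± 9.99), CXCL1 (22.8 ± 8.74), CXCL2 (10.8 ± 5.02), CXCL3 (9.82 ± 4.28) and CCL5 (6.98 ± 2.53), followed by CCL20 (1.08) and CXCL5 (0.473). CCL2 was above CXCL8 in all 4 DMSO libraries and in DPT replicate 2, and below it in DPT replicates 1, 3 and 4. CCL2 and CXCL8 did not overlap over the DMSO libraries but did in DPT. Most other neighbours overlapped, such as CXCL8 and CXCL1 or CCL5 and CXCL2 in DMSO, and CXCL2 and CXCL3 in DPT.

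CXCL8 took the largest share of the 10 genes' summed FPKM in 3 of the 4 DPT libraries, and CCL2 in all other libraries. The CCL2 share was 51.7%, 44.0%, 80.4% and 52.2% in DMSO and 27.7%, 58.2%, 22.2% and 25.3% in DPT. The CXCL8 share was 24.5%, 26.4%, 8.35% and 22.4% in DMSO and 43.0%, 23.5%, 45.9% and 45.5% in DPT. The high CCL2 shares of 80.4% and 58.2% were those of the pair. The mean CCL2 share was 57.1% ± 16.0 in DMSO and 33.3% ± 16.8 in DPT, and that of CXCL8 was 20.4% ± 8.21 and 39.5% ± 10.7 (SD, n = 4 each). The summed FPKM of the 6 CXC genes ran from 16.7 to 78.7 in DMSO and from 46.8 to 159.8 in DPT, and that of the 3 CC genes from 77.0 to 87.1 and from 58.6 to 74.6. The CXC sums overlapped through the pair, and the CC sums did not overlap.

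**Figure D4:**
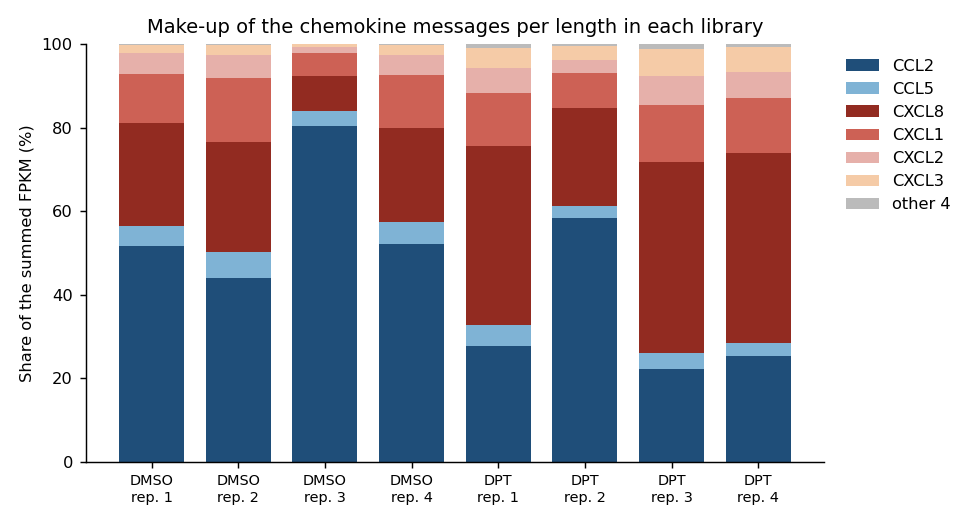
Share of the summed FPKM of the 10 chemokines in percent (vertical axis) in each of the 8 libraries, stacked by gene. CCL2 takes from 44.0% to 80.4% in DMSO and from 22.2% to 58.2% in DPT, and CXCL8 takes from 8.35% to 26.4% and from 23.5% to 45.9%.

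Ratios inside a library do not depend on scaling between libraries and set rising against falling genes. The log2 ratio of CXCL8 to CCL2 counts was 0.05, 0.35, -2.14 and -0.10 in DMSO replicates 1 to 4 and 1.73, -0.19, 2.16 and 1.97 in DPT. DPT replicate 2 lay within the DMSO range only because DMSO replicate 3 was far below all other libraries. Against DMSO replicates 1, 2 and 4 it lay slightly below. The means were -0.46 and 1.42, a difference of 1.88, which the two-sided exact permutation test over 4 against 4 libraries did not pass (p = 0.114, where 0.0286 is the smallest possible). Within the pair the difference was 1.95.

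Other ratios did separate the groups in all 8 libraries, the pair included, and are given as values with no test. CXCL3 over CCL2 ran from -6.27 to -3.80 in DMSO and from -3.54 to -1.29 in DPT on the log2 scale. This ratio had to separate the groups, because CXCL3 and CCL2 each did so alone, in opposite directions, and it adds nothing to those results. CXCL8 over CCL5, which were both low in the pair, ran from 1.67 to 2.82 in DMSO and from 3.55 to 4.42 in DPT. Within the CXC cluster the genes did not move by equal amounts. CXCL1 over CXCL3 was 2.45 to 3.09 in DMSO and 1.22 to 1.58 in DPT. CXCL1 over CXCL8 was -1.52 to -1.04 in DMSO and -2.28 to -1.97 in DPT. CXCL3 over CXCL8 overlapped, at -4.16 to -3.75 and -3.81 to -3.35. CXCL3 and CXCL8 thus stood higher relative to CXCL1 in every DPT library than in any DMSO library. Of the 15 ratios between the 6 tested chemokines, 8 did not overlap in 8 libraries and 12 in the 6. The 15 reuse the same 6 genes and are not independent. The same share over ratios of all tested genes was not computed, so these counts are only a description.

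Across the 8 libraries the CXC genes varied together, which is given as a description since the same pair and treatment groups shape each correlation. After the group means were taken out, Pearson's r of log2 CPM was 0.999 between CXCL2 and CXCL8, 0.995 between CXCL1 and CXCL2 and 0.911 between CXCL8 and CCL5, but -0.832 between CXCL8 and CCL2. The pair carries most of that variation. By r over the 8 libraries with the group means kept, 2 genes followed CXCL1 more closely than CXCL2 did. That number was 201 for CXCL8, 716 for CXCL3 and 814 for CCL5. Such likeness was thus not particular to the chemokines. The 2 genes most like each chemokine over the 8 libraries were IL6 (r = 0.998; 0.983 without the pair) and EVC2 for CXCL1, DDIT3 and PAPPA2 for CXCL2, NFIL3 and CREM for CXCL3, and RND3 and SH2D5 for CXCL8. For CCL2 they were AKR1C3 (r = 0.995) and RAB34, and for CCL5 ST3GAL1 (r = 0.982; 0.945 without the pair) and JDP2. IL6 was at 7.72, 12.9, 2.10 and 8.37 CPM in DMSO and at 11.9, 3.96, 14.6 and 13.8 CPM in DPT, the same picture of low values in the pair as CXCL1.

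Few other chemokine ligands were present. Of 30, 16 had 0 counts in all 8 libraries and 24 were under 1 CPM in every library. Of the 5 tested, none was called higher and 1 lower by edgeR, with a median log2 fold change of -0.73 against -0.0018 over all tested genes. At an unadjusted p under 0.05 the counts were 1 and 2, and DESeq2 called 0 and 1. The called gene was CXCL14, an epithelial chemokine, at 1.42, 1.76, 2.57 and 1.58 CPM in DMSO and 0.857, 0.899, 0.897 and 0.980 CPM in DPT (log2 fold change -1.01; edgeR, adjusted p = 0.0358). Its call was lost in the 6 libraries (-0.80; edgeR, adjusted p = 0.0804), without the filter (0.0551), with limma on log2(FPKM + 1) (-0.38; 0.0535) and on leaving out any 1 library other than DPT replicate 2 (0.0571 to 0.102). With the pair term CXCL11, an interferon-induced CXCR3 ligand, was also called higher (1.81) and CXCL12, the CXCR4 ligand, lower (-0.74). CXCL11 had 12, 6, 2 and 4 counts in DMSO and 17, 2, 41 and 37 in DPT. Its DMSO libraries alone would not have passed the filter, so its call is no support for a rise. CXCL12 was at 3.79, 4.13, 10.6 and 2.31 CPM in DMSO and 1.77, 4.26, 2.63 and 2.94 CPM in DPT. Neither was called with 8 libraries (edgeR, adjusted p = 0.157 and 0.269). CXCL12 was not called in the 6 libraries either (-0.48, edgeR adjusted p = 0.211). CXCL11 and CXCL12 were named after their values were seen. Here and in the lists below, counts with the pair term stand beside 16.9% higher and 17% lower over all tested genes. Those in the 6 libraries stand beside 17% and 17.1%. For unadjusted p and for DESeq2 no share over all tested genes was computed, so those counts are only a description.

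Receptors for the chemokines were near zero. CXCR1 and CXCR2 had at most 1 and 2 counts in a library, CCR2 at most 1, CX3CR1 at most 4 and CCR6, which binds CCL20, 3 to 15. Of 23 receptors 19 were under 1 CPM in every library and CXCR3, CCR3, CCR8 and CCR9 had no counts. None of the 4 tested was called with 8 libraries by edgeR or DESeq2, and 0 had an unadjusted p under 0.05, while with the pair term CCRL2, an atypical receptor named here after its values were seen, was called higher (0.68).

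Genes of the NF-kB pathway were called higher more often than lower. All 14 subunits and inhibitors were tested, and 4 were called higher and none lower with 8 libraries (median log2 fold change 0.22). At an unadjusted p under 0.05 the counts were 6 and 1, DESeq2 called 5 and 0, and with the pair term edgeR called 7 higher and 1 lower. Over all tested genes edgeR called 5.68% higher and 5.29% lower with 8 libraries, and 16.9% and 17% with the pair term. TNFAIP3, which encodes the feedback inhibitor A20, was at 34.7, 30.6, 17.9 and 36.1 CPM in DMSO and at 90.6, 44.7, 111.0 and 98.3 CPM in DPT. Its groups did not overlap, its pair libraries were lowest in each group as for CXCL8, and its log2 fold change was 1.53 (edgeR, adjusted p = 0.0113). The inhibitor NFKBIE went from 31.4 ± 4.27 to 47.0 ± 4.98 CPM (0.58) and the subunit NFKB2 from 73.9 ± 6.34 to 99.6 ± 11.9 CPM (0.43). The NFKB2 call was lost on leaving out DMSO replicate 2 or 4 or DPT replicate 1, 3 or 4 (edgeR, adjusted p = 0.0511 to 0.0722). CHUK, a kinase of the pathway named after its values were seen, rose by 0.26 on the log2 scale.

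Among 23 upstream cytokines and receptors, 19 were tested, with 1 higher and 1 lower (median 0.11), and 8 and 2 with the pair term. IL1A, the interleukin-1 cytokine that induces CXCL8 in many cells, was at 6.30, 5.69, 3.21 and 6.13 CPM in DMSO and at 26.2, 15.3, 37.0 and 31.1 CPM in DPT, with no overlap (log2 fold change 2.37; edgeR, adjusted p = 0.00183). TNFRSF1A, the main receptor for tumour necrosis factor, fell from 245.0 ± 23.3 to 179.6 ± 12.4 CPM (log2 fold change -0.45; edgeR, adjusted p = 0.0110). IL1B, named after its values were seen, had a log2 fold change of 1.68 that just missed the threshold (edgeR, adjusted p = 0.0502) and 1.70 with the pair term. The gene for tumour necrosis factor itself had 0 counts in all DMSO libraries and 6, 1, 3 and 5 in DPT.

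Of the 9 messenger decay factors tested, none was higher and 1 was lower (median -0.02), namely TIA1, a protein that binds AU-rich messages, which went from 65.0 ± 4.89 to 50.7 ± 3.52 CPM (SD, n = 4; log2 fold change -0.36; edgeR, adjusted p = 0.0192). This call was lost with limma (adjusted p = 0.129 with either pseudocount) and on leaving out DMSO replicate 1, 2 or 4 or DPT replicate 1 or 3 (edgeR, adjusted p = 0.0508 to 0.0673). At an unadjusted p under 0.05 edgeR also had 0 higher and 1 lower, as had DESeq2 after adjustment. With the pair term 1 was higher, ZC3H12A, named after its values were seen, and 1 lower. None of the 19 interferon response genes was called with 8 libraries by edgeR or DESeq2 (median -0.13), and 0 had an unadjusted p under 0.05. With the pair term 10 were lower and none higher, and at an unadjusted p under 0.05 there were 11 and 1. In the 6 libraries 9 were lower and 4 higher. CCL5 and these genes were both lowest in the pair.

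Proteases that cleave or shed chemokines changed in both directions. Of 11 tested of 14, 3 were higher and 1 lower with 8 libraries (median -0.02), and 4 and 3 with the pair term. MMP3 was at 6.91, 5.90, 9.28 and 6.26 CPM in DMSO and 22.0, 14.7, 30.0 and 24.2 CPM in DPT (log2 fold change 1.67; edgeR, adjusted p = 0.00264). MMP1, an interstitial collagenase that can cut CCL2, went from 0.766 ± 0.334 to 5.15 ± 2.89 CPM (2.74). It had 17, 6, 10 and 14 counts in DMSO and 77, 26, 143 and 94 in DPT. The DMSO libraries alone would not have passed the filter for MMP1, so its call is no support for a rise. MMP14, a membrane-bound matrix protease, went from 231.8 ± 9.43 to 314.7 ± 11.1 CPM (0.44). ADAM10, a sheddase of CX3CL1, fell from 409.9 ± 10.9 to 319.8 ± 9.14 CPM (log2 fold change -0.36; edgeR, adjusted p = 0.0049).

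**Figure D5:**
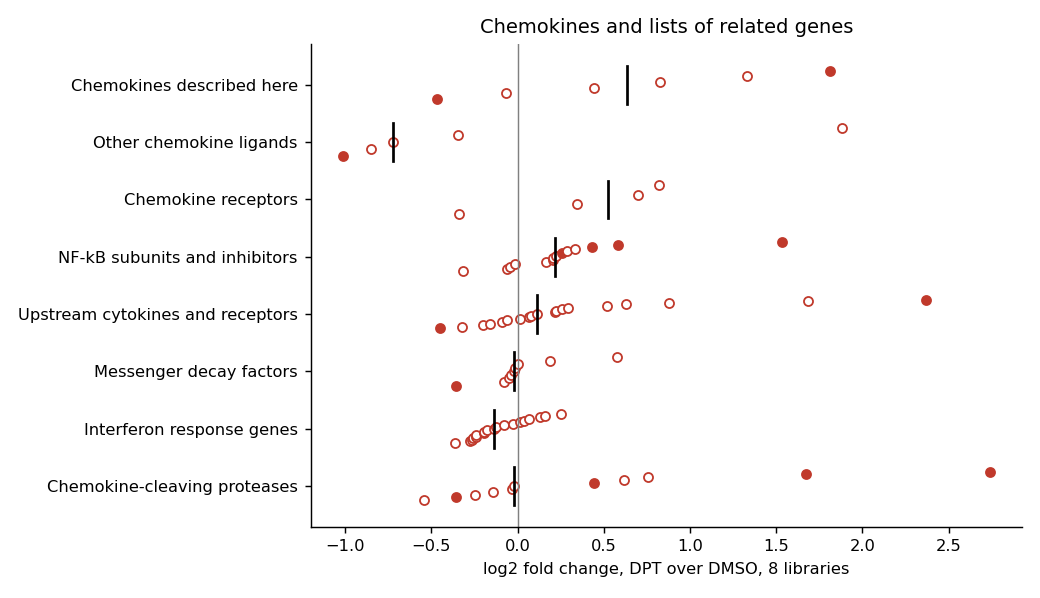
Log2 fold change of DPT over DMSO with 8 libraries (horizontal axis) for each tested gene of the chemokine set and of 7 lists of related genes. Filled points passed edgeR's test, and black lines mark medians, such as 0.22 for NF-kB genes and -0.13 for interferon response genes.

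Marker lists were examined for other cells. Of 12 leukocyte markers 2 were tested and none was called with 8 libraries by edgeR or DESeq2 (0 at an unadjusted p under 0.05), 8 were under 1 CPM throughout, MS4A1 was at 0, and PTPRC, the pan-leukocyte marker, had 3 to 9 counts. The fit with the pair term called 1 higher and 1 lower. The summed level of the 12 was 92.6 to 131.1 CPM in DMSO and 95.3 to 147.7 CPM in DPT. Of 8 endothelial markers 4 were tested and 1, KDR, was higher (log2 fold change 2.61), with sums of 27.6 to 39.6 and 29.8 to 40.2 CPM. KDR had 8, 7, 2 and 8 counts in DMSO and 39, 12, 82 and 35 in DPT. It passed the filter only through the DPT libraries, so its call is no support for a rise. KDR was at or under 0.542 CPM in DMSO, and its call was lost with limma (log2 fold change 0.41 on log2(FPKM + 1) and 1.52 on log2(FPKM + 0.1)) and on leaving out any 1 library other than DMSO replicate 3 or DPT replicate 2 (edgeR, adjusted p = 0.0555 to 0.0694). Of 9 fibroblast markers 5 were tested and 3 were lower, PDGFRB, COL3A1 and COL1A2, while DCN and LUM were at 0. All 5 were lower with the pair term. The fibroblast sums of 431.1 to 533.3 CPM in DMSO and 170.2 to 271.7 CPM in DPT moved with treatment, and their part in the chemokine results was not tested. Of 12 mesothelial markers 11 were tested and 2 were lower, KRT18 and UPK3B, against 7 lower and 1 higher both with the pair term and in the 6 libraries, and 5 lower and 1 higher by DESeq2. The KRT18 call was lost on leaving out DPT replicate 3 or 4, and the UPK3B call on leaving out DMSO replicate 1 or 4 or DPT replicate 1 or 3 (edgeR, adjusted p = 0.0519 to 0.0841). With sums of 3378 to 4862 CPM in DMSO and 2165 to 3548 CPM in DPT, most markers of the labelled cell type were present, apart from ITLN1, which was at 0. The part of these sums in the chemokine results was not tested.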

How the data were processed

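Messenger RNA of 8 H2452 libraries was analysed from the deposited table. Per the file headers it holds an estimated count (the deposited expected counts, of which 10.8% were not whole) and FPKM for each gene and library. The submitters' processing notes name DESeq2, RSEM, HISAT2, fastp 0.18.0 and StringTie 1.3.1, and the genome build hg38. The sources used here do not give the role or settings of each tool, the annotation release or whether counting used strand. Trizol extraction, oligo(dT) enrichment and a NEBNext Ultra kit are described in the labels' protocols.

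Expected counts were rounded. In R 4.3.3, edgeR 4.0.16 with TMM and filterByExpr defaults (minimum count 10, minimum total 15) kept 12648 genes (12697 in 6 libraries). Its quasi-likelihood test was run on treatment alone with all 8 libraries, with a term for DMSO replicate 3 and DPT replicate 2, with their interaction, and on the other 6 libraries. P-values were Benjamini-Hochberg adjusted over all tested genes and called under 0.05. Levels are TMM-normalized CPM, and correlations used log2 CPM with a prior count of 2. Ratios were compared by an exact permutation test in scipy 1.17.1. The scripts were tested on simulated data.

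Alternatives were RLE scaling, DESeq2 1.42.0, other low-count filters, limma 3.58.1 on log2(FPKM + 0.1) and log2(FPKM + 1), each library left out, and a replicate block. A pair term with no filter was added after seeing the data. All 10 chemokines are named, as are, for each list, up to 3 called genes per direction (those of smallest adjusted p), and the 2 genes with the highest r to each tested chemokine. The members and lists were chosen with earlier results of these data known. Promoter sequences are from RefSeq, GRCh38.p14.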

Additional observations from a re-analysis of the deposited data

Results flagged for a closer look

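MMP3, a matrix protease of the list of chemokine-cleaving enzymes, differed in its DPT response between the pair of DMSO replicate 3 and DPT replicate 2 and the other 6 libraries. The interaction was -1.34 on the log2 scale (edgeR, adjusted p = 0.0134). MMP3 was higher in DPT on both sides, by 1.58 times (0.66 on the log2 scale) inside the pair and 4.00 times (2.00) outside it. The pair holds 1 library per group, so its side of this difference has no replicate. None of the 6 tested chemokines had such an interaction past the threshold.

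In 53 groups of 4 libraries, 3 held a library far from the rest by Dixon's criterion, which flags about 5% of groups by chance. CX3CL1 in DMSO replicate 2 was at 0.0678 CPM, which is 1 count. The other 2 were both in DMSO replicate 3, with the endothelial marker KDR at 0.117 CPM and the keratin KRT18 at 1448 CPM. For KDR the other 3 DMSO libraries lay between 0.474 and 0.542 CPM, and for KRT18 between 1047 and 1103 CPM.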

How the results depend on the processing

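With treatment alone 1 chemokine was called higher and 1 lower. The higher count was 4 with the pair term, 6 in the 6 libraries, 6 with the pair term and no filter, and 0 with limma on log2(FPKM + 0.1). It was 0 to 4 on leaving out single libraries. The lower count was 0 with limma on log2(FPKM + 0.1) and on log2(FPKM + 1), and 0 to 1 without single libraries. Of the 132 genes of the 7 related lists, not all of them tested, 8 were called higher with treatment alone. That count was 22 with the pair term, 28 in the 6 libraries and 24 with the pair term and no filter. It was 6 to 19 without single libraries. The lower count was 4, against 19, 15 and 20 in those 3 fits. It was 2 with limma on log2(FPKM + 1) and 2 to 5 without single libraries. All tested genes gave 5.68% higher and 5.29% lower with treatment alone. Their shares were 16.9% and 17% with the pair term, and 17% and 17.1% in the 6 libraries. For every other setting in this paragraph, the pair term with no filter included, no share over all genes was computed. Counts of called genes in those settings are only a description. The CCL5 log2 fold change was -0.29 to 0.15 without single libraries and changed sign, to 0.09 without DMSO replicate 2, 0.02 without DMSO replicate 4 and 0.15 without DPT replicate 2, never past the threshold. CXCL8 was called on leaving out DPT replicate 2 (1.60; edgeR, adjusted p = 0.0202). The CXCL8 to CCL2 log2 ratio difference was 1.32 to 2.41 without single libraries, the CXCL8 share difference 15.04 to 24.4 percentage points and the CCL2 share difference -32.0 to -15.9. Over single genes and settings, 343 values kept their direction and side of the threshold, 71 lost a call, 10 gained one and 3 changed sign. The reference was treatment alone with 8 libraries, except for CXCL5 and CCL20, where it was the 6 libraries. Those genes gave 5 and 4 of the lost calls. A replicate block left 0 chemokines called higher and 0 lower, and 4 and 1 related genes. Between libraries of the same replicate number, deviations from group means correlated at 0.20, -0.31, -0.40 and 0.21 for numbers 1 to 4. Not every library correlated best with its own number, since DMSO replicate 3 and DPT replicate 2 correlated at 0.68. That pair shapes these correlations, so they cannot show whether the replicate numbers pair libraries. Depth limits CXCL5, CXCL6, CCL20 and CX3CL1, which had at most 32 counts in a library.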

Other observations

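The NF-kB type motif GGAANTTCC of the 6 CXC chemokines was also present before the starts of other tested genes. Of the 10281 tested genes with an entry in the promoter table, 120 held it within 250 bases before a start. Of these, 16 (13.3%) were called higher and 4 (3.33%) lower in DPT with 8 libraries by edgeR, against 5.64% and 5.05% of all 10281. With the pair term 39 and 20 of the 120 were called, where the shares over all 12648 tested genes were 16.9% and 17%. The chemokines CXCL1, CXCL2, CXCL3 and CXCL8 are among the 120, and the shares were not tested. For the AP-1 type TGANTCA, 637 tested genes held a match, of which 55 (8.63%) were called higher and 27 (4.24%) lower. For the letters TATAAA, 816 held a match, with 64 (7.84%) higher and 40 (4.90%) lower. For the interferon-response type motif, 358 held a match, with 22 (6.15%) higher and 17 (4.75%) lower.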
